A study of Mus musculus with 6 samples.

Results

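The genes described are 40 nuclear-encoded subunits of respiratory complexes II, III, IV and V together with cytochrome c, the electron carrier between complexes III and IV. They were taken from a fixed list of gene symbols, and a probe was assigned to a gene through its transcript accession. A probe was found for 39 of the 40 genes, out of 23462 genes named on the array. Where a gene had several probes, the one with the highest mean signal stood for it. A difference between groups could be fitted for 38 of them, out of 13085 genes tested. No probe was named for Cox5b, and after removal of outlier spots Atp5j kept a value on 1 array only.

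Microglia, the resident macrophages of the brain, were isolated from mice labelled male and aged 10 weeks with magnetic beads against the surface receptor P2RY12. The control group consisted of PGC-1αf/f mice, labelled as without PGC-1α, which carry a PGC-1α transgene linked to eGFP that is not expressed until Cre recombinase acts on it. In the mPGC-1α group, labelled as with PGC-1α, the same transgene was combined with Cx3cr1-CreERT2, in which a tamoxifen-dependent Cre is placed in the Cx3cr1 gene. After tamoxifen, Cre therefore acts wherever Cx3cr1 is active, which includes other mononuclear phagocytes besides microglia. Per the study's methods, experiments followed tamoxifen after an interval that is meant to limit the transgene to microglia. Both groups were on a C57BL/6 background, and whether the controls on these arrays received tamoxifen was not stated. Each group had 3 arrays. No source used here says whether each sample came from a separate animal, so p-values measure the spread between these 6 samples, which may be technical.

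The respiratory chain passes electrons from nutrients to oxygen across the inner mitochondrial membrane and stores the energy as a proton gradient. Complex II (succinate dehydrogenase) feeds electrons from the citric acid cycle into ubiquinone, complex III passes them to cytochrome c, complex IV reduces oxygen, and complex V (ATP synthase) uses the gradient to make ATP. PGC-1α is a transcriptional coactivator that in muscle and brown fat raises many of these genes through partners such as estrogen-related receptors and the nuclear respiratory factors. The comparison addresses how the subunit transcripts differ between microglia with and without the active transgene.

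Signal is given below as log2 intensity minus the 75th percentile of the array, called the level, and a difference is the mPGC-1α level minus the PGC-1αf/f level. Ppargc1a, the gene for PGC-1α, gave 0.19, -0.44 and -1.21 on PGC-1αf/f arrays and 0.57, 0.28 and 0.08 on mPGC-1α arrays at its brighter probe, a difference of 0.80 (SE 0.35, limma adjusted p 0.306) with overlapping groups. Ppargc1a differed by 0.44 once PGC-1αf/f replicate 3 was left out. Whether the probe detects the transgene was not analysed here. PGC-1αf/f replicate 3, which had the lowest Ppargc1a level, also had the lowest mean correlation with the other arrays, 0.928 against 0.963 to 0.973 for the other arrays. All 12 microglia markers were well above background on every array, with 2 of 12 fitted higher and a median difference of -0.24, and Cx3cr1, the gene that holds Cre, was lower by -0.51 (adjusted p 0.194) without overlap. Markers of blood leukocytes, of which 9 of 12 were well above background on all arrays and Cd79a on none, summed to between 14.9 and 97.9 in PGC-1αf/f microglia and between 99.1 and 125 in mPGC-1α microglia on the linear scale. The value of 14.9 belonged to PGC-1αf/f replicate 3. Sums of 9 oligodendrocyte markers were 16.4 to 19.9 in PGC-1αf/f microglia and 11.6 to 13.9 in mPGC-1α microglia, without overlap, while those of neuron, astrocyte and endothelial markers overlapped. The part of these other cells in the results was not tested. In whole-cell RNA, fewer cells of a type and less RNA per cell cannot be told apart. On mPGC-1α replicate 3, 0 of 4 Y-linked genes were well above background against 4 of 4 on every other array, which goes against its label as male. Xist, a transcript of the inactive X chromosome, was well above background on that array and on replicate 2 of each group, which also goes against the label, and on none of the other 3. PGC-1αf/f arrays lay in row 1 of the slide and mPGC-1α arrays in row 2, so slide row and group cannot be told apart.

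All 38 fitted differences were above 0, in a background where 52.9% of all genes tested were above 0. That background includes dim genes, while the subunit genes were bright. Their levels ran from 1.37 (Uqcrfs1, PGC-1αf/f replicate 2) to 4.84 (Cox4i1, mPGC-1α replicate 3). A background matched by level was not tested. Under quantile normalization 34 of 38 were above 0 with a median of 0.14, beside 47.1% of all genes. In the main fit the 38 differences ran from 0.01 for Cox7a2l to 0.49 for Cox6b1. Their median was 0.25, or 1.19-fold, beside 0.02 over all genes. None of the 38 genes passed an adjusted p of 0.05 in limma (lowest adjusted p 0.284), and across all probes 0.0792% passed. At an unadjusted p under 0.05, 2 genes were higher, Sdhc and Atp5d, and 0 were lower, where 7.83% of all genes were higher and 5.75% lower. Among the 30 subunit genes measured on all 6 arrays, the groups of 5 did not overlap, all with mPGC-1α higher, while 12.4% of all genes lacked overlap with mPGC-1α higher and 10.7% with it lower. The shares past these p-values or without overlap were thus below or near those of all genes. Only 5 of 30 lay above its background of 12.4%, by a small margin among genes that vary together. Of the same 30 genes, 25 had their lowest value on a single control array, PGC-1αf/f replicate 3, as described further on.

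**Figure D1:**
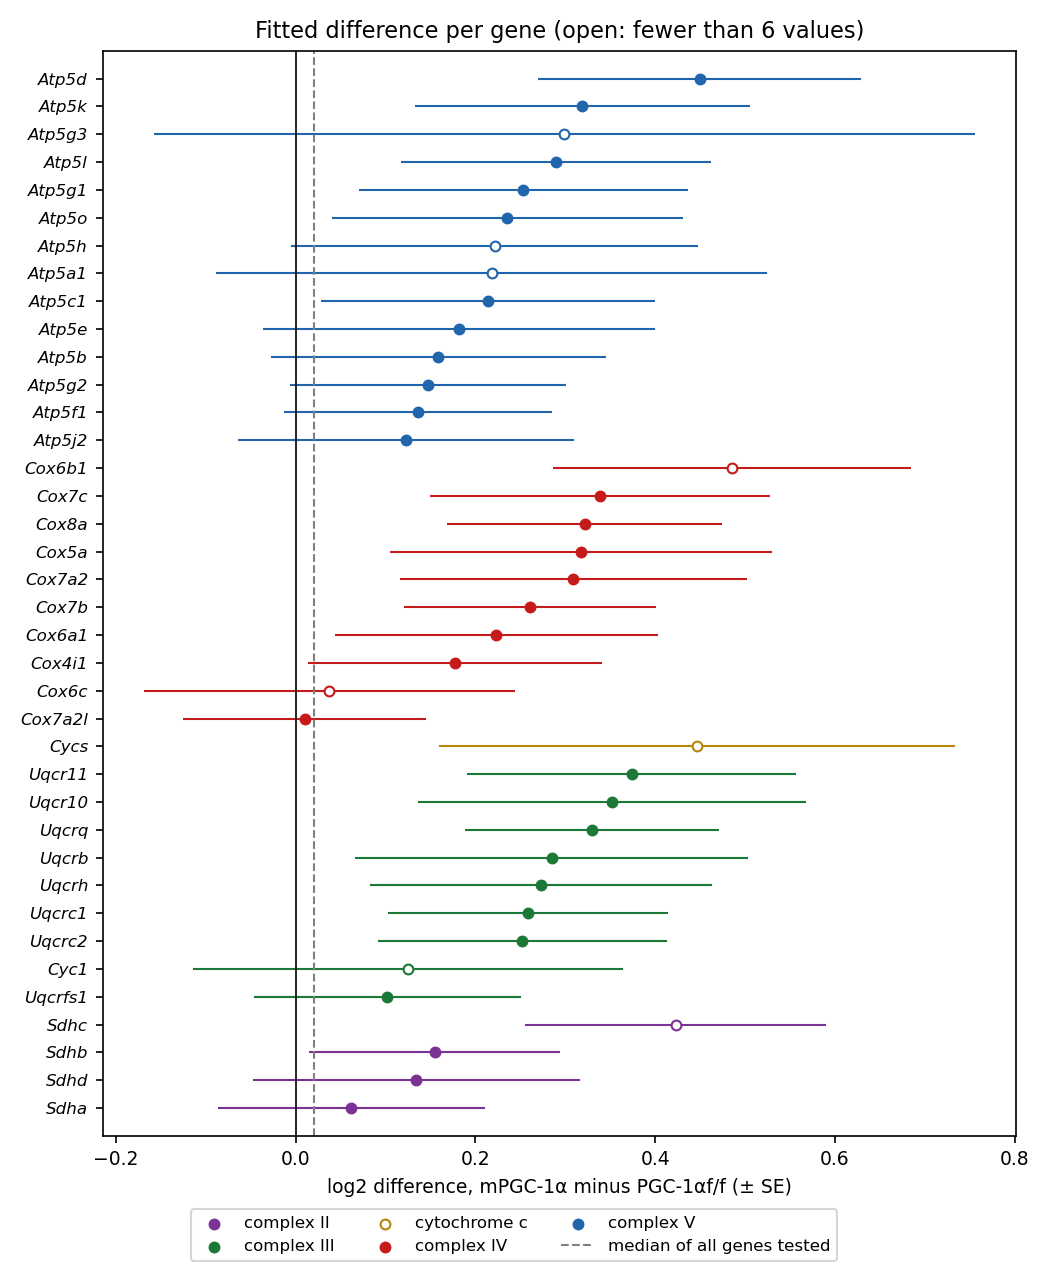
Fitted log2 difference (x axis, mPGC-1α minus PGC-1αf/f, bars ± SE) for 38 genes, coloured by complex, with open points for genes with fewer than 6 values. All points lie right of 0, from 0.01 to 0.49, and 5 of the 30 filled points belong to genes whose groups do not overlap.

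Complex II oxidizes succinate and is the only complex here with all subunits encoded in the nucleus. The median difference of its 4 genes was 0.14. Sdhc, a membrane anchor, had control levels of 2.06, 1.82 and 1.79 and levels of 2.40 and 2.22 on mPGC-1α replicates 1 and 2, and its spot on mPGC-1α replicate 3 was an outlier and left out. Every remaining mPGC-1α value lay above the control values. The difference in Sdhc was 0.42 (SE 0.17, unadjusted p 0.0455, adjusted p 0.293), and with the outlier spot kept it was 0.52 (adjusted p 0.206). Sdha, the flavoprotein that holds the catalytic site, gave 2.24, 2.56 and 2.42 in PGC-1αf/f and 2.64, 2.38 and 2.38 in mPGC-1α microglia. The groups overlapped, with the lowest value on PGC-1αf/f replicate 1, and the difference in Sdha of 0.06 had a 95% interval from -0.29 to 0.41. The iron-sulfur subunit Sdhb differed by 0.15, and the second membrane anchor, Sdhd, by 0.13.

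Complex III had a median difference of 0.27 over its 9 genes, and 2 of the 8 with full values had mPGC-1α higher without overlap (all genes 12.4%). Uqcrc2, which forms the core of the complex with Uqcrc1, gave 3.52, 3.10 and 3.48 in PGC-1αf/f and 3.56, 3.56 and 3.74 in mPGC-1α microglia. The gap between the groups was small, since PGC-1αf/f replicate 1 lay just below the mPGC-1α values, and the difference in Uqcrc2 was 0.25 (SE 0.16, adjusted p 0.445). Uqcrq, a small membrane subunit, gave 3.79, 3.55 and 3.45 in PGC-1αf/f and 4.004, 3.90 and 3.87 in mPGC-1α microglia. All mPGC-1α values of Uqcrq lay above all control values, with a difference of 0.33 (SE 0.14, adjusted p 0.304).

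The widest difference within complex III was that of Uqcr11, another small subunit, at 0.37 (SE 0.18, adjusted p 0.347). Its levels were 3.93, 3.59 and 3.34 in PGC-1αf/f and 4.03, 3.85 and 4.10 in mPGC-1α microglia, and the groups overlapped because PGC-1αf/f replicate 1 lay above mPGC-1α replicate 2. Uqcrfs1, the Rieske iron-sulfur protein that takes the first electron from ubiquinol, had the narrowest, 0.10. It gave 1.58, 1.37 and 1.61 against 1.80, 1.47 and 1.58, and only mPGC-1α replicate 1 lay above every control. The core subunit Uqcrc1 differed by 0.26, and the small subunits Uqcrb, Uqcrh and Uqcr10 by 0.28, 0.27 and 0.35. Cyc1, the cytochrome that hands electrons on to cytochrome c, had values on 3 arrays and differed by 0.12.

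Cytochrome c itself, encoded by Cycs, had values on 4 arrays, 2.96 and 2.56 on PGC-1αf/f replicates 2 and 3 and 2.90 and 3.51 on mPGC-1α replicates 2 and 3. These values overlapped between the groups. The difference was 0.45 (SE 0.29, adjusted p 0.467), and 0.42 with outlier spots kept. With array weights it was 0.03. Over all alternatives it ran from -0.06, in the 4 arrays of slide columns 1 and 2, to 0.75.

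Complex IV, where oxygen is reduced to water, had a median difference of 0.28 over 10 genes, and 2 of 8 had mPGC-1α higher without overlap (all genes 12.4%). Cox8a, a small membrane subunit, gave 3.71, 3.31 and 3.33 in PGC-1αf/f and 3.79, 3.80 and 3.73 in mPGC-1α microglia. The mPGC-1α values were close together and just above PGC-1αf/f replicate 1, while the other controls were lower, with a difference in Cox8a of 0.32 (SE 0.15, adjusted p 0.339). Cox7b, a further small membrane subunit, gave 3.03, 2.83 and 2.67 in PGC-1αf/f and 3.13, 3.12 and 3.07 in mPGC-1α microglia. The pattern was the same as for Cox8a, with PGC-1αf/f replicate 1 nearest to the mPGC-1α arrays, and Cox7b differed by 0.26 (SE 0.14, adjusted p 0.379).

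Cox6b1, which lies on the side where cytochrome c docks, had the widest fitted difference of all 38 genes, 0.49 (SE 0.20, adjusted p 0.315). It rested on 1 control value, 2.59 on PGC-1αf/f replicate 3, against 3.11, 3.11 and 3.00 on the mPGC-1α arrays. With outlier spots kept, the other controls of Cox6b1 were 3.00 and 2.98 and the difference was 0.22. At the other end was Cox7a2l, described as a factor for joining complexes III and IV into supercomplexes, a role not tested in these mice. Cox7a2l gave 3.98, 3.75 and 3.75 in PGC-1αf/f and 3.79, 3.78 and 3.94 in mPGC-1α microglia. Its highest value was on a control array, and the 95% interval of its difference of 0.01 ran from -0.31 to 0.33.

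The remaining complex IV genes overlapped between the groups or lacked values. Cox4i1, which takes part in inhibition of the enzyme by ATP, differed by 0.18, and Cox5a, a subunit on the matrix side, by 0.32. Among the other small subunits, Cox6a1 differed by 0.22, Cox7a2 by 0.31 and Cox7c by 0.34. Cox6c, with values on 5 arrays, differed by 0.04.

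**Figure D2:**
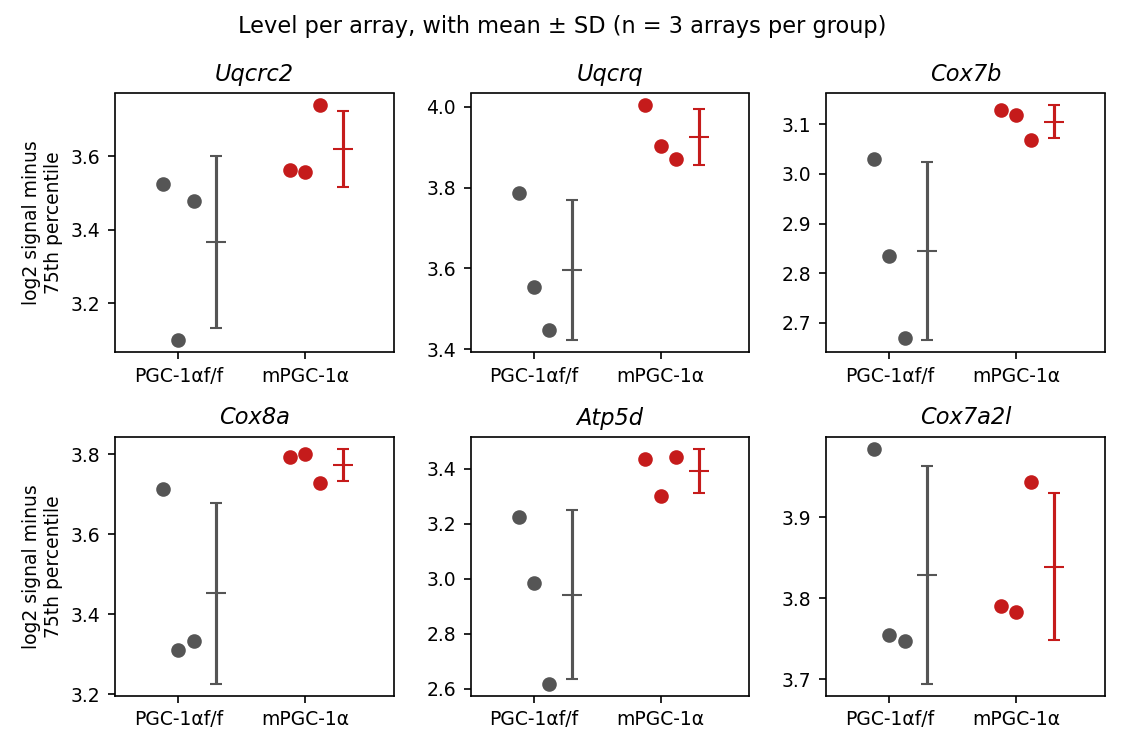
Level (y axis, log2 signal minus the 75th percentile of the array, a separate range in each panel) of 6 genes on each array, with the group mean ± SD (n = 3). In Uqcrc2, Uqcrq, Cox7b, Cox8a and Atp5d all mPGC-1α points lie above the PGC-1αf/f points, while in Cox7a2l, with a difference of 0.01, a control point is highest.

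Complex V makes ATP in a rotary head driven by a ring in the membrane. Its 14 tested genes had a median difference of 0.22, and 1 of the 11 with full values had mPGC-1α higher without overlap, a share below the 12.4% of all genes. This was Atp5d, the delta subunit of the central stalk, with 3.23, 2.98 and 2.62 in PGC-1αf/f and 3.43, 3.30 and 3.44 in mPGC-1α microglia. PGC-1αf/f replicate 3 was the lowest and replicate 1 the nearest to the mPGC-1α arrays. The difference in Atp5d, 1.37-fold or 0.45 on the log2 scale (SE 0.18), had the lowest p of all 38 genes (unadjusted p 0.0414, adjusted p 0.284).

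Atp5j2, the f subunit in the membrane, had the narrowest difference within complex V, 0.12 (SE 0.19). It gave 3.77, 3.54 and 3.25 in PGC-1αf/f and 3.81, 3.41 and 3.71 in mPGC-1α microglia. The groups overlapped, as mPGC-1α replicate 2 lay below both of the higher controls. In the head and central stalk, the catalytic beta subunit Atp5b differed by 0.16, gamma (Atp5c1) by 0.21 and epsilon (Atp5e) by 0.18. Atp5g1, Atp5g2 and Atp5g3, which encode the same mature protein of the membrane ring, differed by 0.25, 0.15 and 0.30. The value of Atp5g3 came from 3 arrays, 3.61 and 2.71 on PGC-1αf/f replicates 1 and 3 and 3.46 on mPGC-1α replicate 1, and was -0.15 without PGC-1αf/f replicate 3. In the peripheral stalk, Atp5f1 (subunit b) differed by 0.14, Atp5h (subunit d) by 0.22 and Atp5o, the part that confers sensitivity to oligomycin, by 0.24. Atp5j (coupling factor 6) differed by 0.23 with outlier spots kept. The membrane subunits Atp5k and Atp5l differed by 0.32 and 0.29.

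Atp5a1, the alpha subunit of the head, was the only gene of 12 with several tested probes whose probes differed in sign. Its brighter probe kept 1 value in each group after removal of outlier spots, 3.06 on PGC-1αf/f replicate 3 and 3.28 on mPGC-1α replicate 3, a difference of 0.22 (SE 0.31). A second probe with values on all 6 arrays gave -0.08 (SE 0.29). In all, 9 of the 39 genes lacked a value on at least 1 array, and all 39 were well above background on every array. With outlier spots kept, 39 of 39 differences were above 0 with a median of 0.24.

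The subunit transcripts varied together from array to array, across the complexes. For each of the 30 genes with full values, the level on each array was set against the gene's own mean over the 6 arrays. The median deviation was 0.13, -0.14 and -0.36 on PGC-1αf/f replicates 1, 2 and 3. It was 0.20, 0.00 and 0.18 on mPGC-1α replicates 1, 2 and 3. Over all genes it stayed between -0.03 and 0.05. PGC-1αf/f replicate 1 thus lay above mPGC-1α replicate 2 and below mPGC-1α replicates 1 and 3, and 25 of 30 genes had their lowest value on PGC-1αf/f replicate 3. The highest value was on mPGC-1α replicate 3 for 13 genes, on mPGC-1α replicate 1 for 10, on PGC-1αf/f replicate 1 for 6 and on mPGC-1α replicate 2 for 1.

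**Figure D3:**
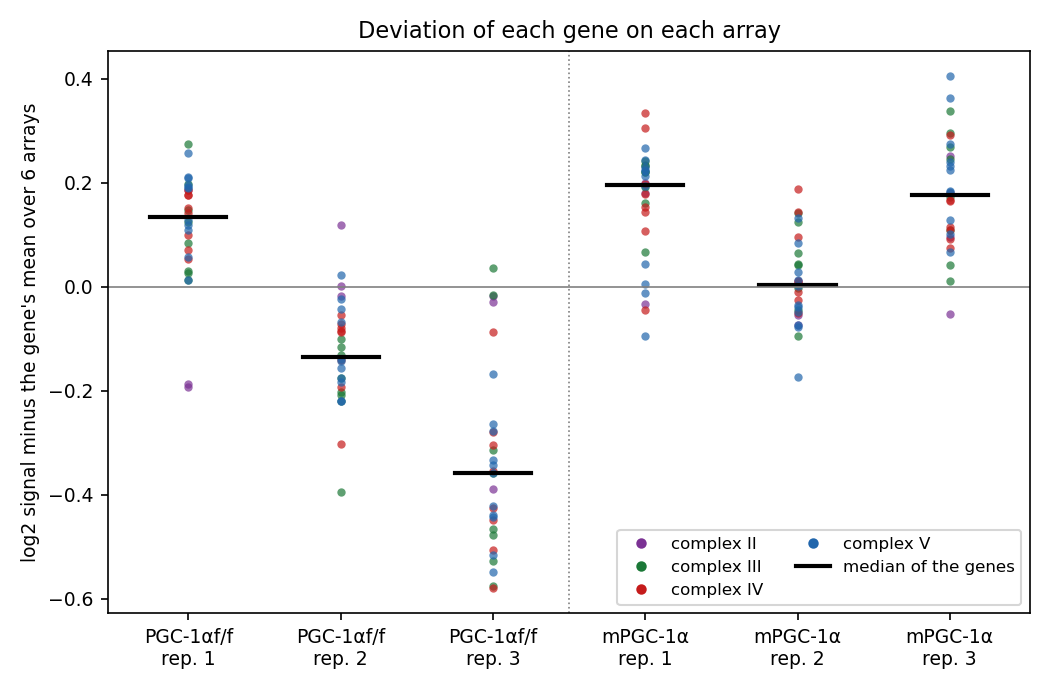
Deviation of the log2 level from the gene's mean over 6 arrays (y axis) on each array (x axis) for 30 genes with full values, coloured by complex, with the median as a bar. The bar is at -0.36 on PGC-1αf/f replicate 3, and at 0.13 on PGC-1αf/f replicate 1, between the 0.00 of mPGC-1α replicate 2 and the 0.20 and 0.18 of mPGC-1α replicates 1 and 3.

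The size of the shift therefore depended on single control arrays. Without PGC-1αf/f replicate 3, the median difference was 0.11 (0.02 over all genes), and 30 of 36 genes were above 0, the exceptions being Sdhd, Cox6c, Cox7a2l, Atp5g3, Atp5h and Atp5j2. Without PGC-1αf/f replicate 1, it was 0.39. In that fit 23 of 30 genes had mPGC-1α higher without overlap, against 24.7% of all genes, and 13 of 38 were higher past the unadjusted threshold, against 12.1%. Without mPGC-1α replicate 3, the array that lacked Y-linked signal, the median was 0.19, and without replicate 2 it was 0.24 for PGC-1αf/f and 0.28 for mPGC-1α. Replicates 1 of both groups shared a column of the slide, as did replicates 2. Within the first column 18 of 30 genes were higher in mPGC-1α microglia (median difference 0.04, all genes 0.01, with 51.5% of them higher). Within the second column 25 of 30 were higher (median difference 0.13, all genes 0.02, with 53.8% higher). In the 4 arrays of these columns together the median was 0.08 and 27 of 36 genes were above 0. PGC-1αf/f replicate 3 was also the array lowest in blood leukocyte markers and in Ppargc1a, and it had 101 outlier spots where the others had 842 to 1382. It was the brightest array too, with a 75th percentile intensity of 2138 against 1012 to 1667. Median deviations were 0.13 (PGC-1αf/f replicate 1), 0.20 and 0.18 (mPGC-1α replicates 1 and 3) at intensities of 1012, 1276 and 1467. At 1552 (PGC-1αf/f replicate 2), 1667 (mPGC-1α replicate 2) and 2138 they were -0.14, 0.00 and -0.36. The part of these features in the result was not tested.

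Under other scalings the median of the subunit genes stayed above that of all genes. A shift by the array median moved all genes to -0.11 and the subunit genes to 0.12, which left them 0.23 above, and 31 of 38 were above 0. Quantile normalization gave a median of 0.14 with 34 of 38 above 0, and normexp background correction followed by quantile normalization gave 0.14 with 33 of 38. The table without normalization gave 0.21 with 34 of 38, and array weights gave 0.17 with 34 of 38. In the main fit the subunit median lay 0.23 above that of all genes. This gap was 0.16 under quantile normalization, 0.15 under normexp with quantile normalization, 0.22 without normalization and 0.15 with array weights. With array weights, 4 of the genes (Sdhc, Uqcrc2, Uqcrq and Cox8a) passed an adjusted p of 0.05 in limma, where 13.8% of all probes did, and in the other alternatives 0 of the genes did.

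**Figure D4:**
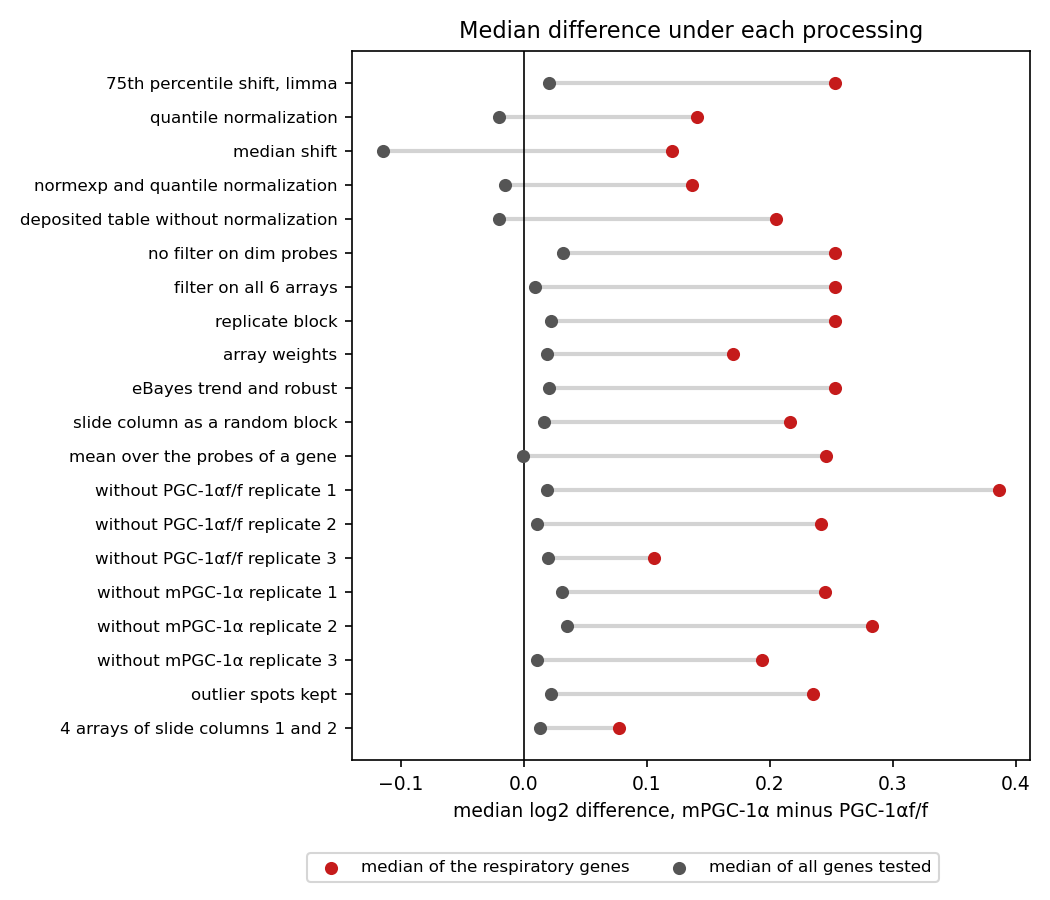
Median log2 difference (x axis) of the subunit genes (red) and of all genes tested (grey) under each processing setting (y axis). The red point lies right of the grey one in every setting, from 0.08 for the 4 arrays of slide columns 1 and 2 to 0.39 without PGC-1αf/f replicate 1.

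Other genes of the same pathway were read from a list of 51, of which 45 had a named probe and 38 were tested. The 6 mitochondrially encoded subunits had no named probe and are not analysed here. Of the 38, 31 differences were above 0 with a median of 0.19, 10 of 34 with full values had mPGC-1α higher without overlap (all genes 12.4%) and 1 lower (10.7%), and 0 passed the adjusted threshold in limma, while 4 were higher at an unadjusted p under 0.05 (all genes 7.83%) and 0 lower (5.75%). These were Coa7 at 0.54 (adjusted p 0.164) and Coa5 at 0.58 (adjusted p 0.197), which are complex IV assembly factors, Uqcc2 at 0.46 (adjusted p 0.202), an assembly factor of complex III, and Cox8b at 0.71 (adjusted p 0.269), a subunit isoform of heart and muscle.

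Coa7 gave -1.41, -1.18 and -1.47 in PGC-1αf/f and -0.75, -0.81 and -0.85 in mPGC-1α microglia, so the groups lay apart by more than the range within either. Uqcc2 gave 2.15, 2.18 and 1.95 against 2.54, 2.46 and 2.66, again with every mPGC-1α value above every control. Coa5 gave -0.77, -0.49 and -0.96 against -0.19, -0.26 and -0.03. In Coa5, too, every mPGC-1α value lay above every control. In Cox8b the controls gave 1.99, 1.67 and 1.04 against 2.59, 2.15 and 2.09, with PGC-1αf/f replicate 3 the lowest. The highest difference was that of Cox6b2, an isoform typical of testis, at 1.00 (adjusted p 0.336), where PGC-1αf/f replicate 3 at -0.55 stood apart from 1.41 and 0.83 on the other controls and 1.89, 1.46 and 1.34 on the mPGC-1α arrays. The lowest was Sco1, a copper chaperone of complex IV, at -0.33 (adjusted p 0.328), with -0.67, -0.69 and -0.48 against -1.18, -0.79 and -0.87.

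By role, the median was 0.55 for 5 tissue-restricted isoforms and 0.27 for 4 complex II assembly factors. In each of the 5 isoforms PGC-1αf/f replicate 3 was the lowest control, as in Cox7a1 with -0.82 against 0.77 and 0.31. The isoform median without that array is not given here. The median was 0.31 for 4 genes listed as further subunits, of which 3 were above 0. The exception was Atp5s at -0.22, whose RefSeq symbol is Dmac2l and whose place among the subunits rests on the list alone. The median was 0.01 for 5 complex III assembly factors, 0.14 for 16 complex IV assembly factors and 0.12 for 4 genes of complex V assembly and inhibition. All 38 listed subunit genes were above 0, as were 3 of the 4 genes listed as further subunits, while 23 of the 29 tested assembly and inhibitor genes were. This difference between subunits and assembly factors was not tested. Complex I, the other entry point of electrons, had 35 of 36 subunit genes above 0 with a median of 0.23, 10 of 29 with mPGC-1α higher without overlap (all genes 12.4%) and 5 of 36 higher at an unadjusted p under 0.05 (all genes 7.83%). PGC-1αf/f replicate 3 was the lowest control in many, though not all, of these complex I genes. Their median without that array is not given here.

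Promoters of the subunit genes were examined as a description, and a link to their shared variation over the arrays was not tested. RefSeq promoter sequence of the assembly GRCm38.p6, from 250 bases before to 50 after the start of the gene, was matched by symbol for 32 of the 40 genes, which had 35 promoters. Shares below are shares of promoters. Letters of 5 motifs were searched on both strands without mismatch. TCAAGGTCA, bound by estrogen-related receptors (ERR), was found for 2 genes (5.71% of their promoters) against 0.423% of all 32851 promoters. Its shorter core AAGGTCA, which lies inside it, was found for 5 genes (14.3%, all promoters 4.72%). CGCATGCG, a palindrome bound by NRF1, was found for 8 genes (22.9%) against 1.87% of all promoters. CCGGAAGT, bound by GABPA, was found for 4 genes (11.4%, all promoters 3.89%), and AAGATGGCG, bound by YY1, for 2 genes (5.71%, all promoters 1.4%). Many RefSeq promoters belong to genes without a protein product, and of 21263 promoters of coding genes 0.334% held the ERR letters, 4.08% the shorter core, 2.52% the NRF1 letters, 5.15% the GABPA letters and 1.83% the YY1 letters.

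The 7 stretches in which the full ERR letters or the NRF1 letters lie wholly upstream of the start are shown, since these factors are partners through which PGC-1α is known to act on respiratory genes. They read from 5′ to 3′ on the strand of the gene, with the matched letters in capitals, and all of these genes lie on the minus strand of GRCm38.p6. The first is the ERR match, on the opposite strand, in the promoter of Atp5g3 at chr2:73911350-73911398, and the others are NRF1 matches, in Cycs at chr6:50566603-50566650, Cox6a1 at chr5:115349092-115349139, Atp5g2 at chr15:102671061-102671108 Atp5k at chr5:108434421-108434468, Atp5j at chr16:84835096-84835143 and Atp5l at chr9:44920956-44920992.
Atp5g3: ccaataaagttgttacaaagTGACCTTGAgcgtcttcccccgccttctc
Cycs: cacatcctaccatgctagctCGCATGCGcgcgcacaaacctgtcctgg
Cox6a1: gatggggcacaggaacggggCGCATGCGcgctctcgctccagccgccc
Atp5g2: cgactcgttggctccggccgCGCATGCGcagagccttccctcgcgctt
Atp5k: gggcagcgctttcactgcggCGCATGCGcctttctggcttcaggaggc
Atp5j: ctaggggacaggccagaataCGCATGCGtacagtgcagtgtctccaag
Atp5l: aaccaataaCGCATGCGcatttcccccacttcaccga

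A match of letters is a description and not a binding site shown in these cells. The NRF1 matches began 61 bases before the start in Cycs, 161 in Cox6a1, 41 in Atp5g2, 49 in Atp5k, 147 in Atp5j and 241 in Atp5l, and the ERR match 52 bases before it in Atp5g3. These genes differed by 0.45 (Cycs), 0.22 (Cox6a1), 0.15 (Atp5g2), 0.32 (Atp5k), 0.29 (Atp5l) and 0.30 (Atp5g3, with the sign turned without PGC-1αf/f replicate 3), while Atp5j had no main fit. The other NRF1 matches, across or after the start, were in Uqcr11 and Uqcrc1, the GABPA matches in Atp5h, Cox8a, Uqcr11 and Uqcrh, and the second ERR match, after the start, in Sdhd. Over the 14 tested genes with any of the 5 motifs the median difference was 0.27, and over the 16 with a promoter and none of them it was 0.24. No test was made of this difference.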

How the data were processed

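Microglial RNA of 3 PGC-1αf/f and 3 mPGC-1α samples was amplified, labelled with Cy5 and hybridized to 1-colour Agilent arrays by the authors. The deposited scanner files hold intensity per spot after background subtraction and correction of spatial trends by the authors' scanner software, with no normalization between arrays. GeneSpring, named in the study's methods, has not been applied to these values. The deposited series table holds the same intensity values to fewer digits.

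Control spots and spots flagged as outliers were left out. From log2 of the deposited intensity the 75th percentile over 59305 spots was subtracted, and spots of a probe were averaged. Probes well above background (at least 0.5 of their spots) on every array of at least 1 group entered the fit, 25333 of 56605, and 25257 gave a p-value. Accessions were matched to RefSeq symbols for 33767 probes. Limma 3.58.1 in R 4.3.3 (lmFit, eBayes, two-sided, Benjamini-Hochberg over all probes), with the R packages data.table (version 1.17.8) and jsonlite (version 2.0.0), was tested on simulated data. Python 3.11.15, pandas 2.3.3, numpy 2.4.6 and matplotlib 3.10.9 were used for sequences and figures. Levels of different probes are not comparable, and hybridization to pseudogene transcripts was not tested.

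Groups and replicate numbers came from the labels. The genes, lists and tests were chosen with earlier results of these data known. Values on every array were given for Ppargc1a, for Cycs and for genes with the highest and lowest difference in each complex, up to 10 with groups that do not overlap, genes whose probes differ in sign, and, of the other pathway genes, those at an unadjusted p under 0.05 or with the highest or lowest difference. Each other subunit gene was named once with its difference. The fit was repeated with quantile normalization, a shift by the median, normexp (offset 50) followed by quantile normalization, the deposited table, no filter or a stricter filter on dim probes, a replicate block, array weights, a trended robust eBayes, slide column as a random block, the mean over probes, and without each array in turn. Keeping outlier spots and using only the 4 arrays of slide columns 1 and 2 were chosen after seeing the data. The number of arrays limits precision.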

Additional observations from a re-analysis of the deposited data

How the results depend on the processing

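The causes of the changes below were not tested. The median over the subunit genes stayed above 0 in every alternative (0.08 to 0.39). Counts moved more. Against 0 genes past an adjusted p of 0.05 in limma, array weights gave 4, namely Sdhc (0.42), Uqcrc2 (0.42), Uqcrq (0.35) and Cox8a (0.45), where 13.8% of all probes passed, and also placed Ppargc1a past it (0.74). Leaving out 1 array gave 0.44 to 1.14 for Ppargc1a, with 1.14 without PGC-1αf/f replicate 1. Against 5 genes with mPGC-1α higher without overlap, quantile normalization gave 3 (11.1% of all genes), normexp with quantile normalization 3 (10.4%) and leaving out 1 array 5 to 23 (24.7% of all genes at 23, without PGC-1αf/f replicate 1, and 15.7% to 18.3% at the others, which gave 5 to 11). In the 4 arrays of slide columns 1 and 2, 7 of 31 genes had mPGC-1α higher without overlap (22.3% of all genes). Against 0 lower without overlap, quantile normalization gave 1 (13.3% of all genes) and the 4 arrays of slide columns 1 and 2 gave 1 (20.5%). Against 2 genes higher at an unadjusted p under 0.05, the count was 1 under quantile normalization (7.35% of all genes), 0 under a median shift (5.72%), 0 in the deposited table (5.48%), 0 with no filter on dim probes (4.8%), 0 in the 4 arrays (5.78%), 8 with array weights (16.2%), 6 with trend and robust (8.49%), and from 0 up to 13 without single arrays (12.1% of all genes at 13).

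A fit with the replicate block, that is the replicate number as a term, gave 0 genes higher at an unadjusted p under 0.05 (10.1% of all genes) and turned Atp5g3 to -0.15. Among the subunit genes it changed no call at the adjusted threshold. Over all probes, 20 passed that threshold in the main fit and 0 with the block. Deviations of same-numbered arrays correlated at 0.14, 0.13 and 0.0187, and the third is too low to treat the numbers as pairs. Only replicates 1 and replicates 2 shared a slide column. With slide column as a random block, the estimated correlation within columns was 0.349. That fit gave 3 genes higher at an unadjusted p under 0.05 in limma (9.48% of all genes).

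Of 715 values of single genes under the alternatives, 47 lay below 0. Under a median shift these were Sdha (-0.071), Uqcrfs1 (-0.031), Cyc1 (-0.085), Cox6c (-0.12), Cox7a2l (-0.12), Atp5a1 (-0.067) and Atp5j2 (-0.0098). Quantile normalization turned Sdha (-0.0079), Cox6c (-0.058), Cox7a2l (-0.11) and Atp5a1 (-0.0698), and normexp with quantile normalization turned Sdha (-0.12), Cox7a2l (-0.035), Atp5a1 (-0.11), Atp5f1 (-0.041) and Atp5j2 (-0.051). The deposited table turned Cyc1 (-0.00302), Cox6b1 (-0.059), Cox7a2l (-0.025) and Atp5a1 (-0.33). Array weights turned Sdha (-0.097), Sdhd (-0.011), Cox6c (-0.0091) and Atp5j2 (-0.037). The random block on slide column turned Cox7a2l (-0.015), and the mean over probes turned Atp5a1 (-0.076). In the 4 arrays, Sdhd (-0.041), Cycs (-0.061), Cox7a2l (-0.083), Atp5e (-0.15), Atp5g2 (-0.023), Atp5g3 (-0.15), Atp5h (-0.13), Atp5j2 (-0.046) and Atp5o (-0.00011) lay below 0. When leaving out 1 array, Sdha ran from -0.023 to 0.14, Sdhd from -0.027 to 0.26, Cox6c from -0.11 to 0.16, Cox7a2l from -0.043 to 0.088, Atp5g3 from -0.15 to 0.75, Atp5h from -0.11 to 0.55 and Atp5j2 from -0.012 to 0.25.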
